A study of Mus musculus with 2 samples.

Results

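The 10 genes described here encode RNA-binding proteins that set neuronal splicing or the stability of neuronal messages: Rbfox1, Rbfox2, Rbfox3, Celf2, Celf4, Nova1, Nova2, Khdrbs2, Elavl2 and Elavl4. They were taken by gene symbol from the 30431 genes of 2 single-nucleus RNA libraries of the mouse hippocampal field CA1, and each symbol matched 1 gene. Together they held 120696 of 7112131 unique molecular identifiers (UMIs, each marking 1 captured RNA molecule) in the epilepsy library and 208516 of 11858162 in the control library.

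Rbfox proteins bind a short motif near alternative exons and favour or block the exon depending on the side they bind. Celf and Nova proteins act in the same way through their own motifs, and Khdrbs2 (SLM1) belongs to the STAR family that selects exons of neurexin genes. Elavl2 (HuB) and Elavl4 (HuD) are neuronal Hu proteins, which bind AU-rich RNA and act on splicing, stability and translation. Rbfox3 is the antigen of the NeuN antibody, the common label for mature neuronal nuclei. In the hippocampus these families shape transcripts of ion channels, receptors and synaptic proteins.

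The epilepsy library came from male C57BL/6J mice of the genotype Calb1::Cre x Tdtomato, aged 6-7 weeks when treated. They were given repeated intraperitoneal kainate (5 mg/kg) until status epilepticus and diazepam (4 mg/kg) to end it. The control library came from mice of the same genotype, sex and age that received vehicle (saline or DMSO). Both were prepared 12 weeks afterwards by dissecting dorsal CA1 from slices, sorting nuclei and loading 15000 of them, and Calb1 is itself a gene of superficial pyramidal cells. The labels name 2 epileptic and 2 control mice without saying whether a library pools them. Each condition has 1 library, so differences between conditions have no replicates behind them and were not tested, and every interval given is a 95% interval of counting error alone. Mice, dissection and library cannot be told apart in such a difference.

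The epilepsy library held 3078 nuclei with a median of 2443 UMIs and the control library 3661 nuclei with a median of 3447. After removal of likely doublets, CA1 pyramidal-like nuclei made up 2337 of 2985 nuclei in epilepsy and 2841 of 3551 in control, the class the tissue label names. They included 442 deep-like and 1059 superficial-like nuclei in epilepsy and 599 and 1243 in control. Interneuron-like nuclei numbered 144 in epilepsy and 197 in control, oligodendrocyte-like nuclei 311 and 223, and dentate granule-like nuclei 14 and 153. CA2/CA3 pyramidal-like nuclei numbered 52 and 19 and were named on 4 of 7 markers. Of those 7 markers, Amigo2, Bok and Iyd had no UMI in the 19 control nuclei. The libraries shared 16 cell barcodes. Levels are summed UMIs per 1000000 UMIs of the class (CPM) and are compared for a gene with itself, since the genes differ in length.

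The members occupy loci of very different span in GRCm38. Rbfox1 lies on chromosome 16 (5885355 to 7411526, plus strand, 1526.2 kb), Celf2 on chromosome 2 (6539694 to 7509563, minus strand, 969.9 kb) and Khdrbs2 on chromosome 1 (32172714 to 32658568, plus strand, 485.9 kb). Rbfox3 spans 421.8 kb on chromosome 11, Celf4 276.5 kb, Rbfox2 228.0 kb on chromosome 15, Nova1 124.4 kb on chromosome 12 and Nova2 39.4 kb on chromosome 7. Elavl2 (91250763 to 91400785) and Elavl4 (110203722 to 110351909) are paralogs on the minus strand of chromosome 4. No other gene of the files overlapped a member on its own strand. Annotated genes overlapping a member on either strand numbered from 0 for Elavl4 to 8 for Khdrbs2, and the sources used here do not give how reads in such overlaps were counted.

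The class contrasts below turn on Khdrbs2, Elavl2 and Elavl4, so their promoter windows are shown, each running from 250 bases before to 50 bases after the start site nearest the annotated 5′ end (RefSeq, GRCm38.p6). Capitals mark CAGCTG, the E-box sequence that reads the same on both strands.
Khdrbs2, chr1:32172472-32172771, plus strand: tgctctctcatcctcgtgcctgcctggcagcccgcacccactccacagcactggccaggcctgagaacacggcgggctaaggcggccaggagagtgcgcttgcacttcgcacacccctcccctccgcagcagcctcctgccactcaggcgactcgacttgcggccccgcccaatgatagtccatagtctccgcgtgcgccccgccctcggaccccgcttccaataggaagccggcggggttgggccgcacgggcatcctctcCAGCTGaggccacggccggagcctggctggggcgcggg
Elavl2, chr4:91399935-91400234, minus strand: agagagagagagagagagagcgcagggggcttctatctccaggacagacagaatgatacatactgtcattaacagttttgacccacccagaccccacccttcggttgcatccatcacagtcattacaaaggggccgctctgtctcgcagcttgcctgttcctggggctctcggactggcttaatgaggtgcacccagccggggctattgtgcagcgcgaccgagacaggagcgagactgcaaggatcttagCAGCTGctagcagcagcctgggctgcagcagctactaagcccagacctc
Elavl4, chr4:110351862-110352161, minus strand: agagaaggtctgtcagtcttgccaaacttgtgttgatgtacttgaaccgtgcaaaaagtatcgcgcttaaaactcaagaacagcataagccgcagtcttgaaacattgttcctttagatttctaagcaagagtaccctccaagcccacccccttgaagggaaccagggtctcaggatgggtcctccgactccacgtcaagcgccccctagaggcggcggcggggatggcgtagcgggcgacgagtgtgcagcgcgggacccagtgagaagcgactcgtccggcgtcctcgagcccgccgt
The Khdrbs2 and Elavl2 windows each held CAGCTG 1 time and the Elavl4 window 0 times, and 16.3% of 32851 RefSeq promoter windows held it. The cyclic AMP response element TGACGTCA, present in 1.79% of windows on either strand, and TATAAA, present in 13.6% on either strand, were in none of these 3 windows. The Khdrbs2 window was 70.3% G and C with 26 CpG pairs, the Elavl2 window 57.0% with 10 and the Elavl4 window 57.0% with 23, against medians of 52.7% and 7 over all windows. RefSeq windows were matched for 8 of the 10 members.

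Rbfox1, which acts in the nucleus on channel and synaptic exons, was high in CA1 pyramidal-like nuclei of both libraries, with 8448 CPM (8374 to 8523) in epilepsy and 8352 in control. Interneuron-like nuclei held less of it, 5791 CPM in epilepsy and 6452 in control, and granule-like nuclei held 4322 CPM in control. The granule-like to pyramidal-like log2 ratio in control was -0.95 (-1.03 to -0.87). The 14 granule-like nuclei of the epilepsy library gave 3377 CPM from 43 UMIs.

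Rbfox3 had another order over the classes. CA2/CA3 pyramidal-like nuclei held 1021 CPM in epilepsy and 823 CPM in control, above the 718 and 565 CPM of CA1 pyramidal-like nuclei, with log2 ratios of 0.51 (0.29 to 0.72) and 0.54 (0.16 to 0.90). Granule-like nuclei were above CA1 pyramidal-like nuclei as well, at 886 CPM in control, a log2 ratio of 0.65 (0.47 to 0.83). Interneuron-like nuclei taken as a whole were below CA1 pyramidal-like nuclei, at 494 CPM in epilepsy and 454 CPM in control. Rbfox2, the more widely expressed paralog, was likewise lower in interneuron-like nuclei, with 268 CPM there against 464 CPM in pyramidal-like nuclei of epilepsy and 346 against 475 CPM of control.

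Celf2 and Celf4, paralogs with the same domain plan, stood on opposite sides of the pyramidal-like level. Celf2 held 1191 CPM in interneuron-like nuclei against 7383 CPM in pyramidal-like nuclei of the epilepsy library, 6.2-fold lower, and 1253 against 8115 CPM in control, 6.47-fold lower. Celf4, a regulator of synaptic and channel messages in excitatory neurons, was 2.82-fold higher in interneuron-like nuclei in epilepsy (820 against 290.4 CPM) and 2.66-fold higher in control (651 against 245 CPM). The 9 pyramidal markers summed to 23.8% of their pyramidal-like level in interneuron-like nuclei of epilepsy and 24.1% in control, with a median marker at 15.2% and 12.8% and Mpped1 highest at 62.7% and 69.4%. Celf2 stood at 16.1% of its pyramidal-like level there in epilepsy and 15.5% in control, below the sum and above the median marker, and the part of free RNA in its counts was not tested. Celf4 was higher again in CA2/CA3 pyramidal-like nuclei, at 1126 CPM from 52 nuclei in epilepsy and 1119 CPM from 19 nuclei in control, 3.88-fold and 4.56-fold above CA1. Granule-like nuclei of control held 700.4 CPM of Celf4, 2.86-fold above CA1, while their 7642 CPM of Celf2 lay close to the pyramidal-like level, with a log2 ratio of -0.09 (-0.15 to -0.03).

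Elavl2 set interneurons apart from CA1 pyramidal nuclei more than any other member. It had 118 UMIs in 61 of 144 interneuron-like nuclei of epilepsy and 291 UMIs in 129 of 197 of control, or 356 and 442 CPM. CA1 pyramidal-like nuclei held 14.6 CPM in epilepsy and 20.04 CPM in control, so the interneuron-like level was 24.4-fold higher (log2 4.61, 4.19 to 5.03) in epilepsy and 22.0-fold higher (log2 4.46, 4.2 to 4.73) in control. With each nucleus thinned to 1000 UMIs, 25.7% of interneuron-like nuclei in epilepsy and 31.4% in control kept an Elavl2 UMI, against 1.54% and 1.93% of pyramidal-like nuclei. CA2/CA3 pyramidal-like nuclei also held it, with 30 UMIs and 166 CPM in epilepsy and 11 UMIs and 142 CPM in control.

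Elavl4 was higher in interneuron-like than in pyramidal-like nuclei too, 3.88-fold in epilepsy (196 against 50.5 CPM) and 2.15-fold in control (126 against 58.6 CPM). In granule-like nuclei of control it had 1 UMI over 153 nuclei (3.32 CPM), against 570 UMIs in pyramidal-like nuclei, a log2 ratio of -4.14 with an interval of -9.45 to -1.66. Its paralog Elavl2 had 4 UMIs there, 13.3 CPM against 20.04 CPM in pyramidal-like nuclei. In the epilepsy library both Elavl genes had 0 UMIs over the 14 granule-like nuclei, with an interval reaching 290 CPM.

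Khdrbs2 went the other way from Elavl2. It held 157 CPM in interneuron-like nuclei of epilepsy and 121 CPM of control, against 508 and 559 CPM in pyramidal-like nuclei, 3.24-fold and 4.6-fold lower. CA2/CA3 pyramidal-like nuclei held 22 UMIs (122 CPM, 4.18-fold lower than CA1) in epilepsy and 7 UMIs (90.02 CPM, 6.21-fold lower) in control. Nova2 stayed between 64.3 and 133 CPM in the pyramidal-like, CA2/CA3, interneuron-like and granule-like nuclei of both libraries. Nova1 was thin in neurons, with 95 UMIs in pyramidal-like nuclei of epilepsy and 198 of control.

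Past 1.5-fold between interneuron-like and CA1 pyramidal-like nuclei were 7 of 9 members with at least 100 UMIs in epilepsy, where 42.8% of 6517 genes were, and 6 of 10 in control, where 41.6% of 8174 genes were. Differences of this size were thus common between these classes. Elavl2, Elavl4, Celf4, Celf2 and Khdrbs2 were past it in both libraries. Nova2 in epilepsy, at 22 UMIs in interneuron-like nuclei, and Nova1 in control, also at 22, were past it in 1 library each, and so was Rbfox2, 1.73-fold lower in epilepsy and 1.37-fold lower in control.

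**Figure D1:**
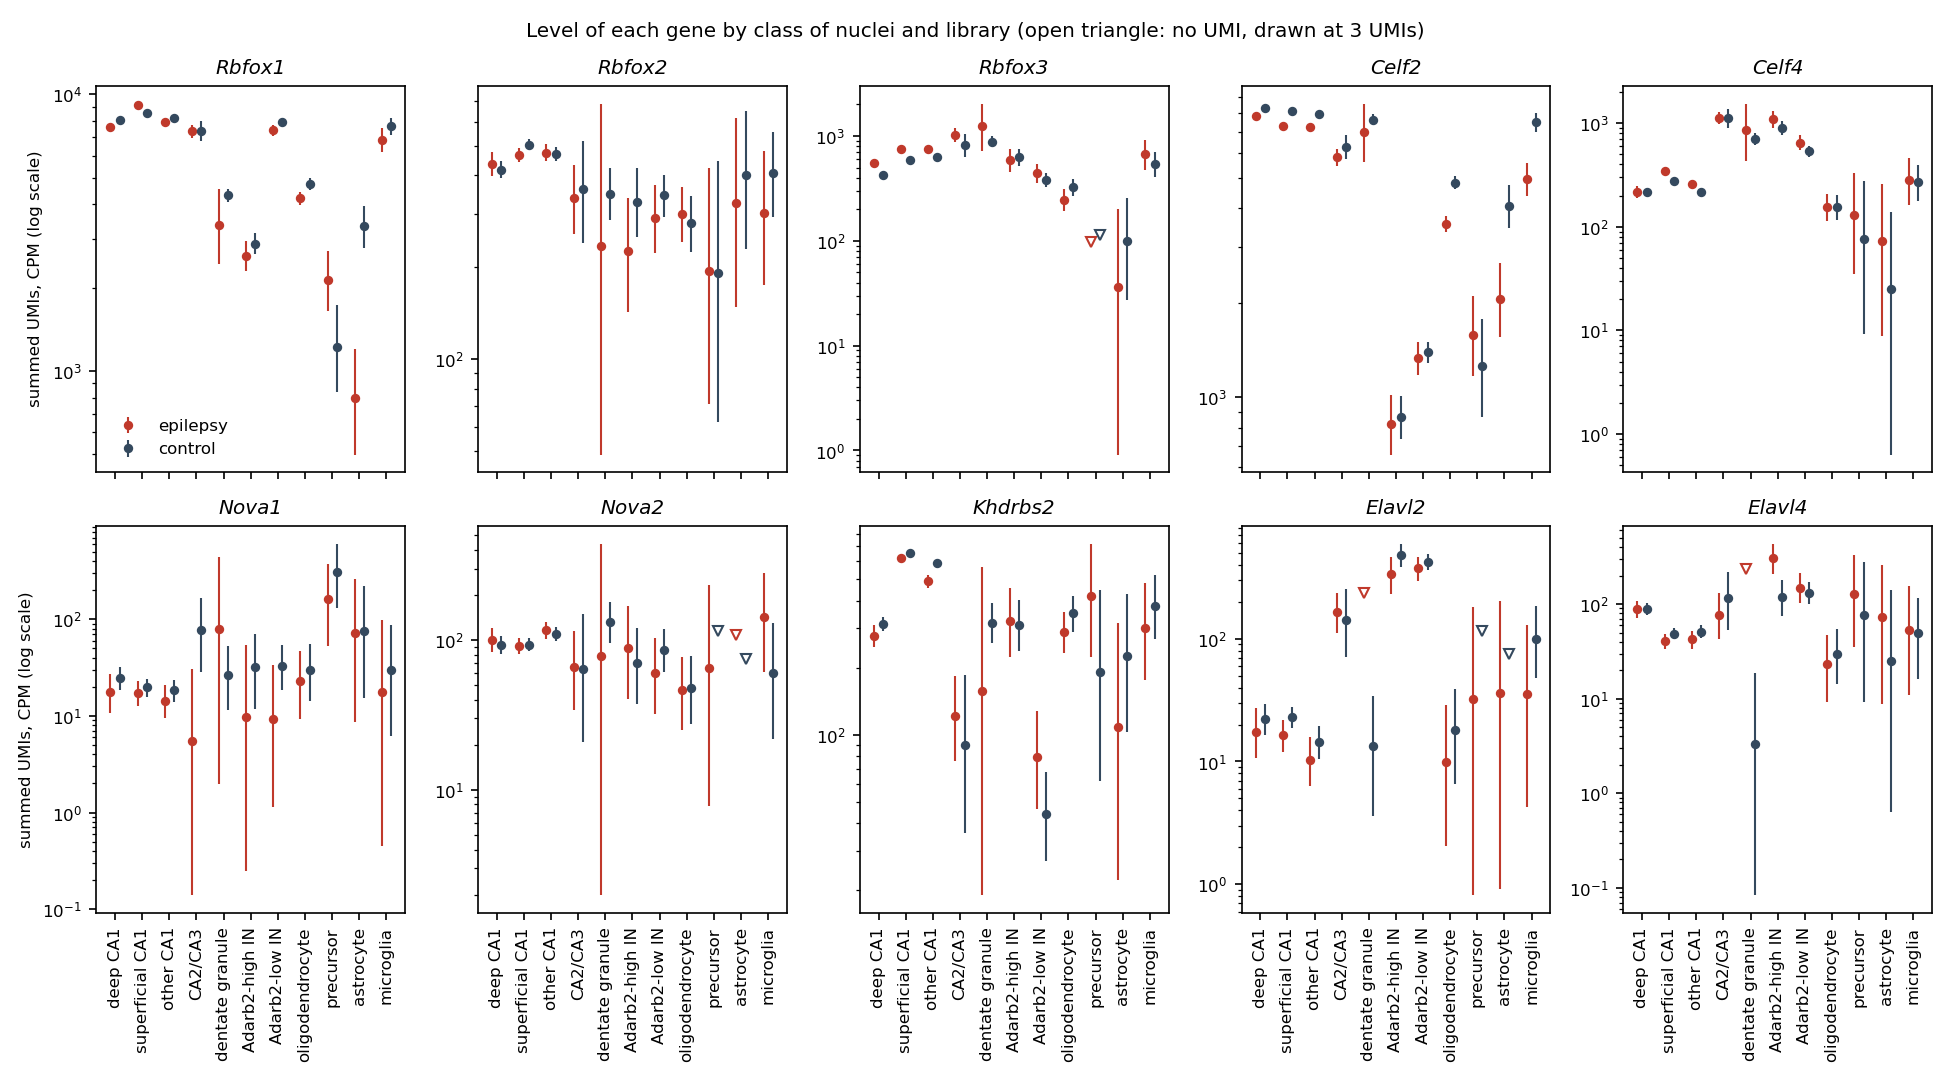
Level of each gene (summed UMIs of the class in CPM, log scale) in 11 classes of nuclei, with epilepsy in red left of control in dark blue and bars for the 95% counting interval. Elavl2 reaches 479 CPM in Adarb2-high interneurons (IN) of control against 22.2 CPM in deep CA1 nuclei, and Celf2 is lowest in both interneuron groups among the neuronal classes.

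Interneuron-like nuclei were split by Adarb2, a gene of interneurons born in the caudal ganglionic eminence, into 50 Adarb2-high and 86 Adarb2-low nuclei in epilepsy and 62 and 127 in control. The split was made after the clusters had been seen. Rbfox1, the contrast with the most UMIs behind it, stood at 2609 CPM in Adarb2-high against 7403 CPM in Adarb2-low nuclei of epilepsy and 2885 against 7966 CPM of control, log2 ratios of -1.50 (-1.70 to -1.32) and -1.46 (-1.60 to -1.33). The Adarb2-low level was thus nearer to the 8448 and 8352 CPM of pyramidal-like nuclei than the Adarb2-high level was. Celf2 was also lower in Adarb2-high nuclei, with log2 ratios of -0.69 in epilepsy and -0.68 in control.

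Khdrbs2 and Celf4 were higher in the Adarb2-high group, though Khdrbs2 stayed under 100 UMIs in this contrast in each library. Khdrbs2 had 33 against 17 UMIs in epilepsy (324 against 79.4 CPM, log2 2.03, 1.14 to 2.96) and 58 against 20 UMIs in control (312 against 44.1 CPM, log2 2.82, 2.07 to 3.63). The Khdrbs2 UMIs came from 17 of 50 Adarb2-high nuclei in epilepsy and 27 of 62 in control, with up to 7 and 12 UMIs in a nucleus. Celf4 held 1089 against 649 CPM in epilepsy and 899 against 536 CPM in control, with a log2 ratio of 0.75 in each library. Rbfox3 held 588.5 against 443.7 CPM in epilepsy (log2 0.41, -0.08 to 0.89) and 630 against 384 CPM in control (log2 0.71, 0.36 to 1.06). Pyramidal-like nuclei held 718 and 565 CPM of Rbfox3, so its Adarb2-high level was not below theirs in control. Elavl2 did not separate the groups: its log2 ratio was -0.16 (-0.79 to 0.43) in epilepsy and 0.18 (-0.20 to 0.56) in control.

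Within the CA1 pyramidal layer, superficial and deep cells differ in connections and in Calb1. The sublayers were named here from clusters made without the members. The superficial-like clusters each had 2 further superficial markers up, but also further deep markers, which did not bar the name. These deep markers numbered 2 in the cluster led by Necab1 and Pcdh7 and 1 in that led by Tenm3 and Lingo2. Calb1 was higher there by log2 0.25 and 0.93. The deep-like cluster had 2 further deep markers up and 0 superficial ones. Between the sublayers, Khdrbs2 and Elavl4 had the largest log2 ratios, in opposite directions. Which of them was larger depended on how nuclei were filtered and clustered. Khdrbs2 held 618 CPM in superficial-like against 278 CPM in deep-like nuclei of epilepsy, 2.22-fold (log2 1.15, 0.98 to 1.33), and 656 against 314 CPM in control, 2.09-fold (log2 1.06, 0.94 to 1.19). With nuclei thinned to 1000 UMIs, a Khdrbs2 UMI was kept by 42.9% of superficial-like and 24.1% of deep-like nuclei in epilepsy and by 43.0% and 23.6% in control.

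Elavl4, lower in superficial-like nuclei, held 40.5 against 88.4 CPM in epilepsy (log2 -1.13, -1.53 to -0.72) and 48.6 against 89.7 CPM in control (log2 -0.88, -1.17 to -0.60). With doublets kept, its log2 ratio of -0.91 in epilepsy and -0.82 in control was larger in size than the 0.83 and 0.74 of Khdrbs2. Rbfox3 was higher in superficial-like nuclei by a log2 ratio of 0.45 (0.32 to 0.58) in epilepsy and 0.48 (0.38 to 0.59) in control. Celf4 was higher by 0.67 (0.47 to 0.88) in epilepsy and 0.36 (0.20 to 0.52) in control. Nova2 and Elavl2 had intervals holding 0 in both libraries.

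Rbfox1 and Celf2 were the members whose counting intervals for this contrast did not overlap between libraries. The superficial-like to deep-like log2 ratio of Rbfox1 was 0.26 (0.23 to 0.30) in epilepsy and 0.09 (0.06 to 0.12) in control. That of Celf2 was -0.11 (-0.15 to -0.08) in epilepsy and -0.03 (-0.06 to -0.01) in control. Both are deeply counted, so these intervals are narrow, and they hold nothing of the spread between mice. The share of all genes, or of equally counted genes, without such overlap is not given here. The lack of overlap therefore does not set these members apart from other genes. Past 1.5-fold were 3 of 8 members in epilepsy (Khdrbs2, Celf4 and Elavl4), where 18.6% of 4970 genes were, and 2 of 10 in control (Khdrbs2 and Elavl4), where 12.4% of 6638 genes were. With nuclei thinned to 1000 UMIs the control count was 1, and Elavl4 was the member no longer past it.

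**Figure D2:**
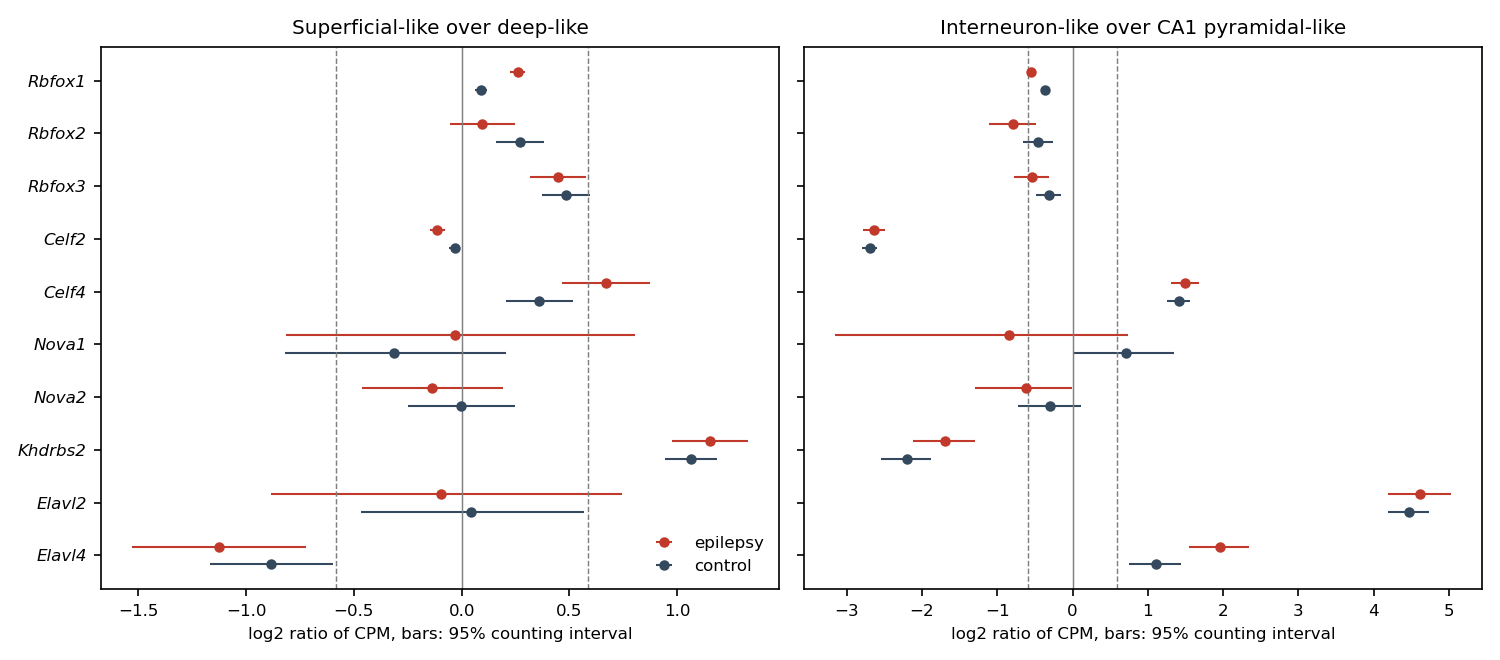
Log2 ratios of superficial-like to deep-like nuclei (left) and of interneuron-like to CA1 pyramidal-like nuclei (right) for each gene, with epilepsy in red above control in dark blue, bars for the 95% counting interval and dashed lines at 1.5-fold either way. Khdrbs2 lies above 1 and Elavl4 below -0.8 on the left in both libraries, and Elavl2 lies above 4 on the right.

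The 6 pyramidal clusters with at least 30 nuclei in each library resolved these contrasts further. Of the superficial-like clusters, that led by Necab1 and Pcdh7 held 706 CPM of Khdrbs2 in epilepsy and 777 CPM in control, and that led by Tenm3 and Lingo2 held 503 and 489 CPM. The deep-like cluster was lowest for Khdrbs2 and highest for Elavl4 in both libraries. A cluster led by Tox and Mkx, in no sublayer, had more Ndst4 (log2 0.80) and less Calb1 (-1.74) than the other pyramidal nuclei. That cluster held 502 CPM of Khdrbs2 in epilepsy and 599 CPM in control, and 48.3 and 64.5 CPM of Elavl4. The Tenm3 and Lingo2 cluster held 48.2 and 63.6 CPM of Elavl4. Both contrasts thus set apart the deep-like cluster, not every cluster with more Ndst4. The cluster led by Tesc and Arhgap33, in no sublayer, had the highest Rbfox3, 984 CPM in epilepsy and 905 CPM in control, and also the fewest UMIs per nucleus, a median of 1601 in epilepsy and 2422 in control. The cluster led by Pcsk1, Nr4a3 and Fos, activity-induced genes, held 472 CPM of Khdrbs2 in epilepsy and 624 CPM in control.

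**Figure D3:**
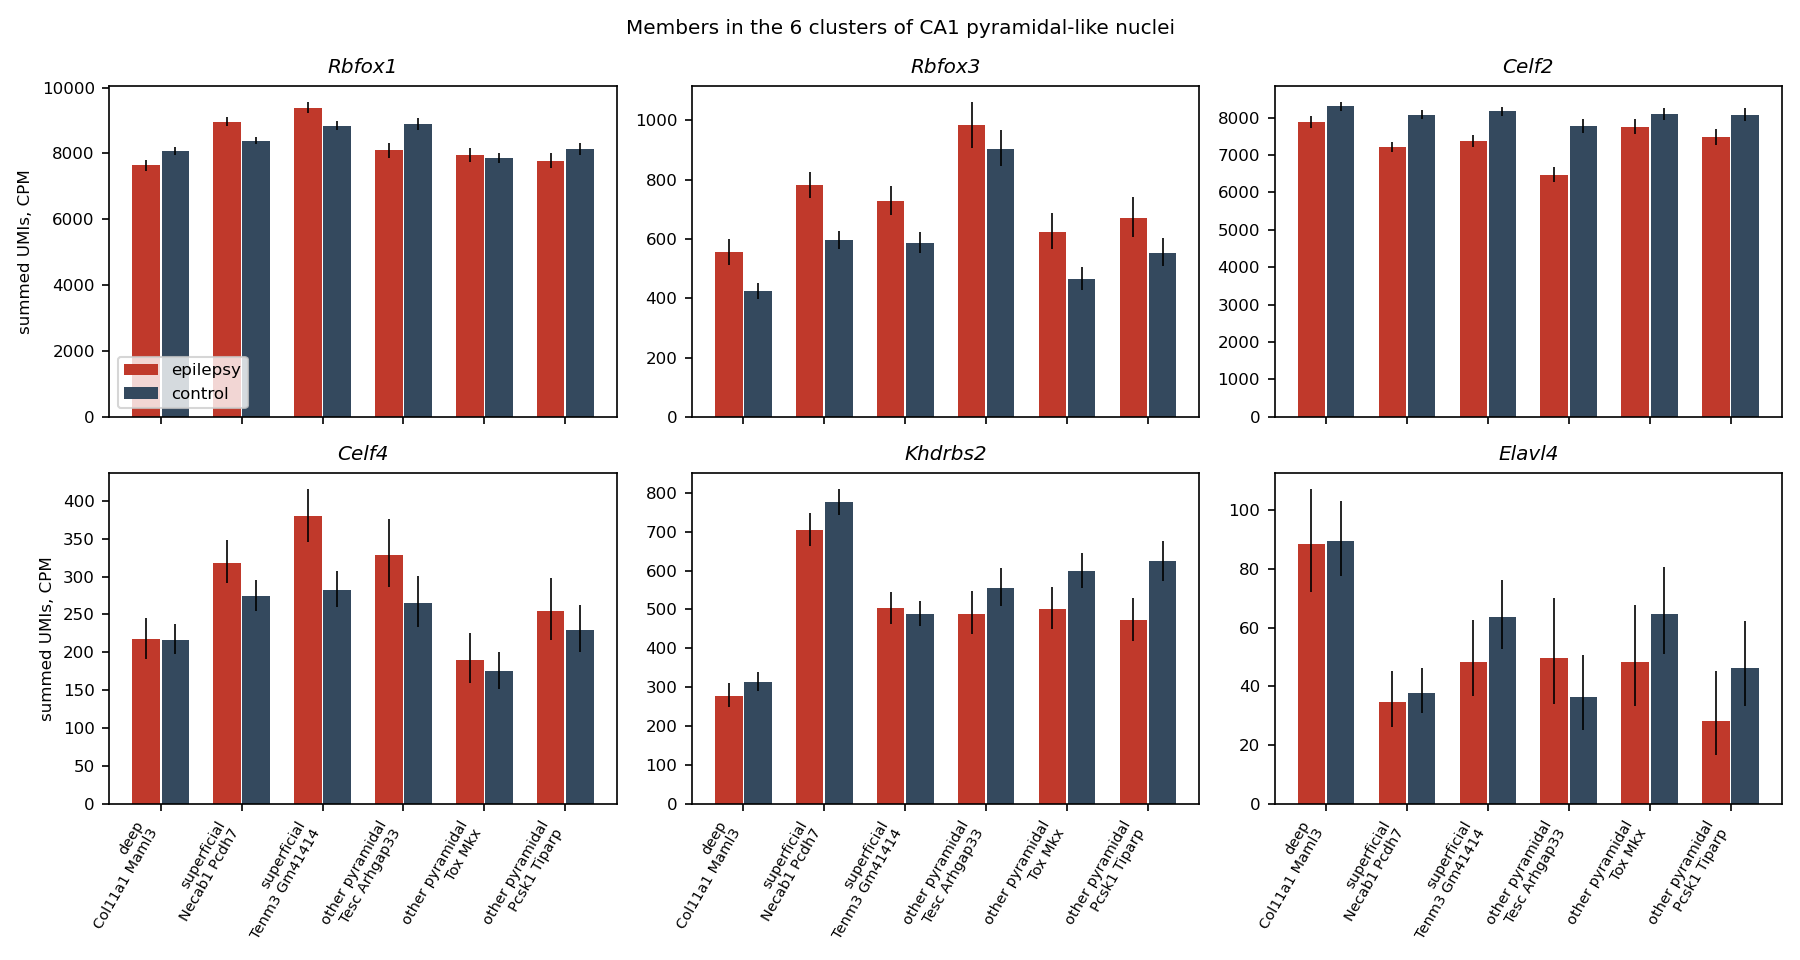
Levels of 6 members (summed UMIs, CPM) in the 6 clusters of CA1 pyramidal-like nuclei, each named by its sublayer and its leading genes, with epilepsy bars in red left of control bars in dark blue and lines for the 95% counting interval. Khdrbs2 ranges from 278 to 706 CPM in epilepsy and from 314 to 777 CPM in control.

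In oligodendrocyte-like nuclei most members stood near the level of pyramidal marker RNA. The 9 pyramidal markers summed to 51.8% of their pyramidal-like level there in epilepsy and 59.1% in control, and none of the 9 was at 0. Rbfox1 stood at 49.7% of its pyramidal-like level in epilepsy and 56.6% in control, Celf2 at 48.3% and 59.4%, and Celf4 at 53.3% and 63.6%. Nova1 stood higher, at 141% and 148% from 7 and 10 UMIs. Whether these UMIs came from free RNA, from mixed nuclei or from the cells themselves was not tested.

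The oligodendrocyte-like class was uneven in depth, and it was split at 1000 UMIs after values had been seen. Its 53 nuclei of epilepsy and 73 of control with at least 1000 UMIs held 47.5% and 63.9% of the UMIs of the class, and their pyramidal markers summed to 82.8% and 83.1% of the pyramidal-like level. The 258 and 150 nuclei below 1000 UMIs held those markers at 23.8% and 16.6%. Rbfox1 stood at 7289 CPM in the deeper nuclei of epilepsy and 6819 CPM in those of control, and at 1415 and 1022 CPM in the shallower ones. Celf2 stood at 6110 and 6978 CPM in the deeper nuclei and at 1271 and 997 CPM in the shallower ones. The 6 oligodendrocyte markers summed to 2816 and 3865 CPM in the deeper nuclei and 13490 and 15690 CPM in the shallower ones. At Leiden resolution 2.0 the class fell into a cluster of 59 epilepsy and 48 control nuclei with a median depth 1.1 times that of the library and a cluster of 252 and 175 nuclei at 0.24 times.

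Microglia-like nuclei, 39 in epilepsy and 36 in control, held the pyramidal markers at 64.6% and 85.5%, and Rbfox1 at 81.1% and 91.7%. Some members stood well above the summed markers there on few UMIs, as Nova1 did at 109% and 147% (1 and 3 UMIs) and Elavl2 at 243% and 498% (2 and 10 UMIs). The median UMI count of microglia-like nuclei was 745 in epilepsy and 3002 in control.

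Precursor-like nuclei held the least pyramidal marker RNA of the glia, 9.67% in epilepsy and 13.1% in control, with 5 and 4 of the 9 markers at 0. Nova1, best known from neurons, was there at 161 CPM in epilepsy (5 UMIs in 5 of 38 nuclei) and 305 CPM in control (8 UMIs in 7 of 24 nuclei), 991% and 1501% of its pyramidal-like level. Nova1 was not alone, as only 1 member in epilepsy and 3 in control lay below the summed markers. Single markers spread widely, the highest being Mpped1 at 35.4% in epilepsy and Spink8 at 83.5% in control. Above the highest marker were 7 members in epilepsy and 2 in control, Nova1 and Elavl4. Khdrbs2 stood at 82.7% and 34.2% (13 and 5 UMIs) and Elavl4 at 256% and 130% (4 and 2 UMIs). Rbfox3 had 0 UMIs in precursor-like nuclei of both libraries. Its intervals reached 119 CPM in epilepsy and 141 CPM in control, against 718 and 565 CPM in pyramidal-like nuclei. In astrocyte-like nuclei Nova1 stood at 443% and 369% from 2 and 3 UMIs, Rbfox3 had 1 UMI in epilepsy and 4 in control, and Nova2 had 0 in both.

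**Figure D4:**
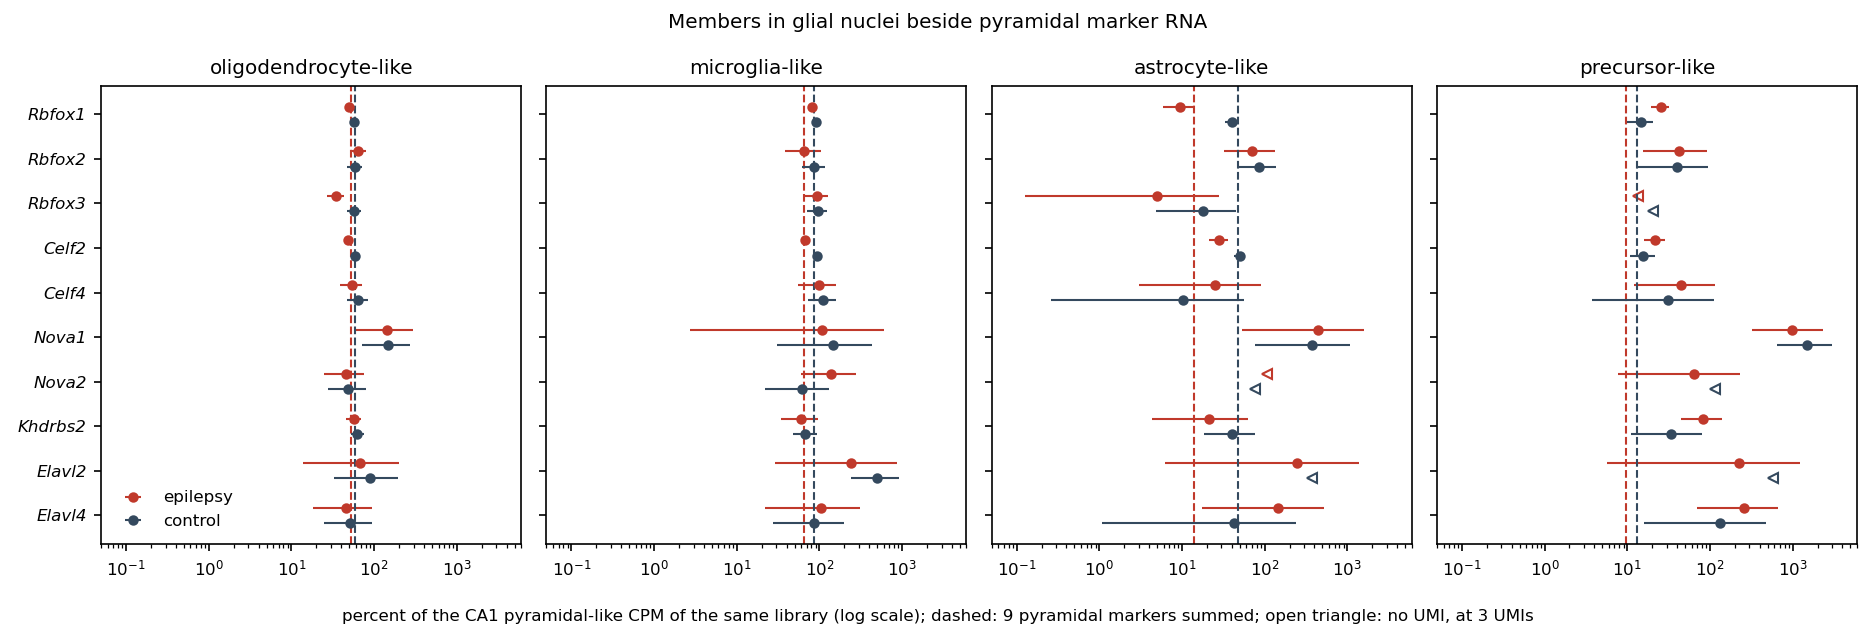
Level of each gene in 4 glial classes as a percent of its CA1 pyramidal-like level in the same library (log scale), with epilepsy in red above control in dark blue, bars for the 95% counting interval of the glial sum, and dashed lines for the 9 pyramidal markers summed. Most members lie near the dashed lines in oligodendrocyte-like and microglia-like nuclei, and Nova1 lies to the right of them in all 4 classes.

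Between conditions none of the 10 members was past 1.5-fold in CA1 pyramidal-like nuclei, where 9.03% of 9218 genes with at least 100 UMIs were. With 10 genes a count of 0 is near that share and does not set the members apart. Among genes with at least 1000 UMIs, which have narrower counting error, 0 of 7 members were past 1.5-fold and 1.8% of 2385 genes were. Over the members the log2 ratio of epilepsy to control had a median of -0.09, against -0.01 for all 9218 genes. By counting intervals 3 members were higher, 4 lower and 3 held 0, where 19.1% of all genes had an interval above 0 and 17.7% one below 0. These shares rise with depth: of genes with at least 1000 UMIs, 29.1% had an interval above 0 and 26.1% one below 0. Of the members with that many, Rbfox1, Rbfox3 and Celf4 were higher, Celf2 and Khdrbs2 lower, and Rbfox2 and Nova2 held 0.

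Rbfox3 was higher in epilepsy across the pyramidal nuclei. Its level was 718 CPM in epilepsy and 565 CPM in control, a log2 ratio of 0.34 (0.29 to 0.40). The log2 ratio was 0.39 (0.24 to 0.54) in deep-like nuclei, from 556 against 424 CPM, and 0.35 (0.27 to 0.44) in superficial-like nuclei, from 758 against 593 CPM. It was above 0 in all 6 pyramidal clusters, between 0.12 and 0.42. The lowest value, in the cluster led by Tesc and Arhgap33, had an interval that held 0 (-0.03 to 0.27). In interneuron-like nuclei the log2 ratio of Rbfox3 was 0.12 (-0.16 to 0.40).

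Celf4 was higher in epilepsy in superficial-like nuclei, 345 against 278 CPM (log2 0.31, 0.19 to 0.44). In deep-like nuclei it held 217 CPM in both libraries, a log2 ratio of 0.00 (-0.23 to 0.23), and the difference between sublayers was not tested. Interneuron-like nuclei gave 820 against 651 CPM of Celf4, a log2 ratio of 0.33 (0.11 to 0.56).

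Celf2 was lower in epilepsy, with 7383 CPM against 8115 CPM in control in pyramidal-like nuclei (log2 -0.14, -0.15 to -0.12). The log2 ratio of Celf2 was -0.08 in deep-like and -0.16 in superficial-like nuclei. Khdrbs2 was lower by a similar amount, 508 against 559 CPM (log2 -0.14, -0.20 to -0.07). Elavl2 had 85 UMIs in epilepsy and 195 in control in these nuclei, a log2 ratio of -0.46 (-0.84 to -0.08). Elavl4 gave -0.22 (-0.42 to -0.01).

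Rbfox1 hardly differed in pyramidal-like nuclei as a whole, by a log2 ratio of 0.02 (0.00 to 0.03) that was -0.07 with trimmed-mean (TMM) scaling and -0.01 with equal weight per nucleus. It was 0.09 (0.07 to 0.12) in superficial-like nuclei, from 9148 CPM in epilepsy and 8575 CPM in control, and fell to 0.003 at the lowest under other processing. In deep-like nuclei the Rbfox1 log2 ratio was -0.08 (-0.11 to -0.04), from 7638 and 8058 CPM. Rbfox2, Nova1 and Nova2 had intervals that held 0 in pyramidal-like nuclei, and the interval of Nova1, from 95 and 198 UMIs, ran from -0.69 to 0.04.

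In deep-like nuclei 0 of 8 members were past 1.5-fold, where 7.77% of 4336 genes were, and in superficial-like nuclei 0 of 10, where 8.0% of 6962 genes were. In interneuron-like nuclei 1 of 8 was, Elavl4, where 7.52% of 1689 genes were. Elavl4 had 65 UMIs in 49 of 144 nuclei of epilepsy and 83 UMIs in 64 of 197 nuclei of control, 196 against 126 CPM (log2 0.64, 0.15 to 1.12), with at most 3 and 4 UMIs in a nucleus. Adarb2-high nuclei held 304 CPM of it in epilepsy from 31 UMIs and 118 CPM in control from 22, and Adarb2-low nuclei 149 CPM from 32 and 132 CPM from 60. Its log2 ratio was 0.47 with doublets kept and 0.57 with TMM scaling, both short of 1.5-fold. In oligodendrocyte-like nuclei 0 of 5 members were past it, where 8.44% of 1078 genes were, and Celf2 there held 3567 CPM in epilepsy and 4819 CPM in control (log2 -0.43). The pyramidal markers were lower in the same nuclei of epilepsy as well (51.8% against 59.1%), and their part in this difference was not tested. With at least 500 genes per nucleus the log2 ratios in oligodendrocyte-like nuclei turned to 0.105 for Celf2 and, for Rbfox1, to 0.35 in place of -0.17.

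In microglia-like nuclei 1 of 2 members with at least 100 UMIs was past 1.5-fold, Celf2, where 21.9% of 187 genes were. Celf2 had 279 UMIs in epilepsy and 752 in control there, 4941 against 7498 CPM (log2 -0.60, -0.81 to -0.40). Rbfox1 had a log2 ratio of -0.16 (-0.34 to 0.02). The median over the 187 genes was -0.17, and the pyramidal markers (64.6% in epilepsy, 85.5% in control) and the depth of the nuclei (median 745 and 3002 UMIs) were lower in epilepsy too. The part of either in these values was not tested. Thinned to 1000 UMIs, Celf2 gave -0.09.

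**Figure D5:**
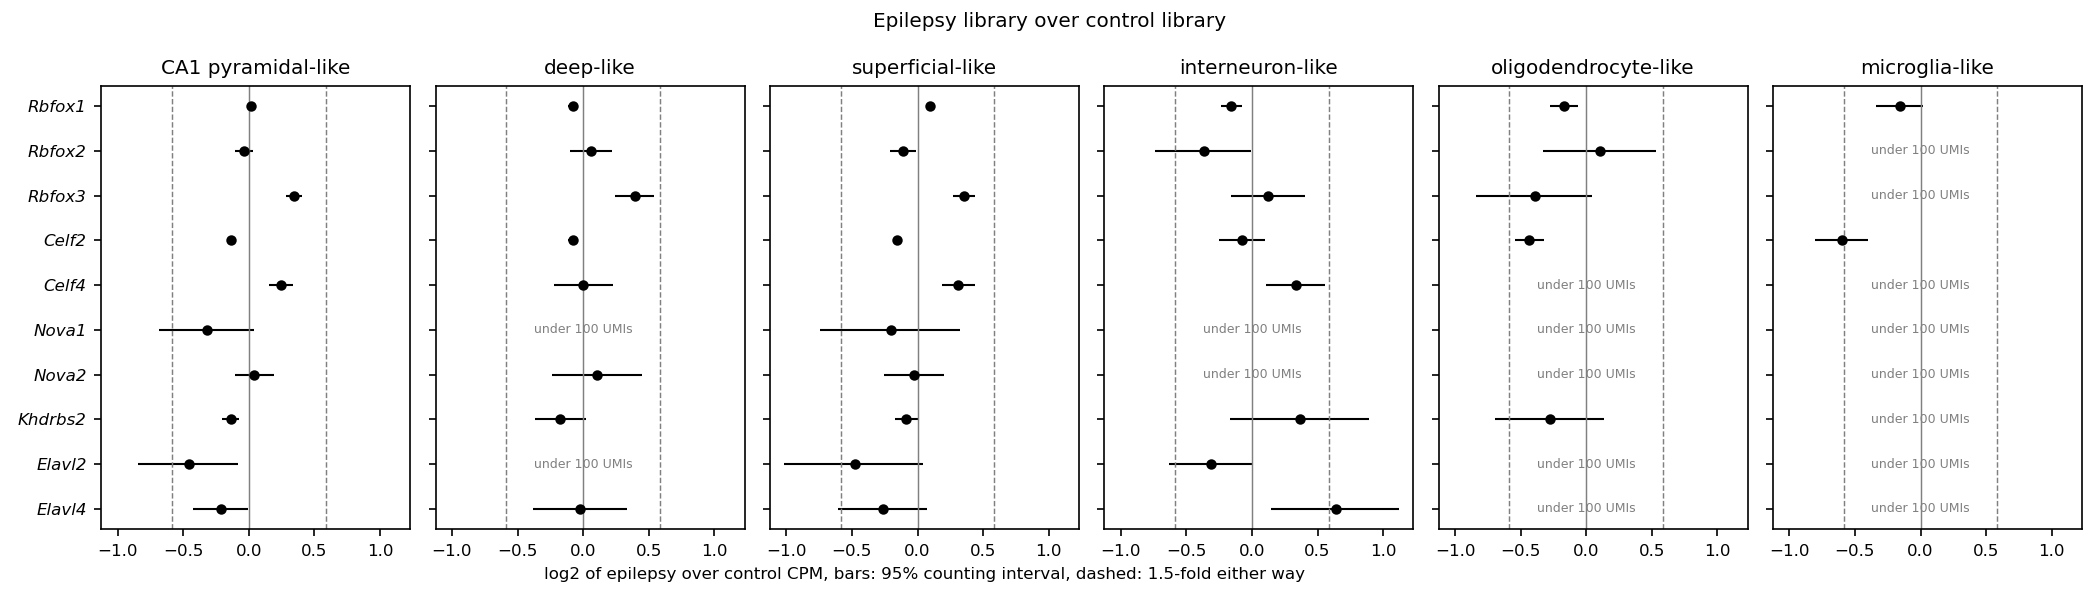
Log2 ratio of epilepsy to control CPM for each gene in 6 classes of nuclei, with bars for the 95% counting interval and dashed lines at 1.5-fold either way; genes under 100 UMIs over both libraries are marked as such and not drawn. Rbfox3 lies between 0.34 and 0.39 in the 3 pyramidal panels, and of the points drawn, Elavl4 in interneuron-like nuclei (0.64) and Celf2 in microglia-like nuclei (-0.60) are past a dashed line.

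Other splicing genes gave a wider frame for these values. Of 31 further neuronal regulators and paralogs, such as Celf1, Elavl3, Ptbp2, Srrm4 and Mbnl2, 24 had at least 100 UMIs in CA1 pyramidal-like nuclei. None was past 1.5-fold, beside 9.03% of all genes, so a count of 0 from so few genes says little. The epilepsy to control log2 ratios had a median of 0.11, beside -0.01 for all genes. Counting intervals lay above 0 for 10 and below 0 for 3, beside 19.1% and 17.7% of all genes. Srrm4, which includes microexons in neuronal messages, held 102 CPM in epilepsy and 88.4 CPM in control (log2 0.20, 0.05 to 0.36). Of 23 hnRNP genes none was past 1.5-fold and the median was 0.02, with 4 intervals above 0 and 6 below, beside the same shares of all genes.

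SR proteins and their partners bind exonic enhancers and assemble the spliceosome. All 16 were counted in CA1 pyramidal-like nuclei and 2 were past 1.5-fold, both lower in epilepsy, beside 9.03% of all genes past it in either direction. Their median log2 ratio was -0.12, beside -0.01 for all genes. Of their intervals 1 lay above 0 and 7 below, beside 19.1% and 17.7% of all genes. Srrm2, a scaffold of nuclear speckles, held 602 CPM in epilepsy and 932 CPM in control (log2 -0.63, -0.69 to -0.58). The Srrm2 log2 ratio was -0.61 in deep-like, -0.60 in superficial-like and -0.51 (-0.74 to -0.29) in interneuron-like nuclei. Srsf12 held 7.04 CPM in epilepsy and 12.54 CPM in control, from 163 UMIs in all.

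In interneuron-like nuclei, where 7.52% of 1689 genes were past 1.5-fold, 2 of 7 hnRNP genes with at least 100 UMIs were, both lower in epilepsy, and the median log2 ratio of the 7 was -0.42. Hnrnpu, a nuclear matrix protein that binds RNA, held 72.4 CPM in epilepsy and 155 CPM in control (log2 -1.10, -1.80 to -0.44). Hnrnpl, which binds CA repeats, held 96.5 CPM and 146 CPM, and its interval ended just under 0 (log2 -0.60, -1.22 to -0.004). Of 6 SR proteins and partners 1 was past it, Tra2a, at 151 against 256.5 CPM (log2 -0.77), and the median was -0.24. Of 10 other neuronal regulators 0 were, with a median of 0.09.

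The members differ in gene span, so the ratios were set beside it. Over all tested genes the median pyramidal-like log2 ratio was -0.02 for the 7202 genes under 100 kb, 0.03 for those of 100 to 300 kb and 0.06 for the 540 genes of 300 kb or more. The long members lay on both sides of this, with Rbfox1 at 0.02, Celf2 and Khdrbs2 at -0.14 and Rbfox3 at 0.34.

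Across 18 profiles of a class and library with at least 20 nuclei, the genes most like each member were found among 4680 genes by Pearson correlation of log2(CPM + 10). Both libraries, with their free RNA, enter each profile pair, so these are descriptions. Celf2 was most like Galnt17 (0.98), Slit3 and Kcnip4, and Rbfox1 most like the AMPA receptor gene Gria1 (0.96), Ptprn2 and Syt1. Rbfox3 was most like the NMDA receptor gene Grin1 (0.97), Dgkg and Gria1, and Nova2 most like Zmym3 (0.98), Sptbn4 and Mtmr7. Celf4 was most like the potassium channel gene Kcnh1 (0.94), Rapgef4 and Clmp, and Khdrbs2 most like Kcnq3 (0.90), March1 and Kcnh3. Nova1 was most like Xrcc4 (0.91), Itpr2 and Xylt1, and Rbfox2 most like Adgrb3 (0.91), Pigk and Mical2. The Elavl genes had the lowest values, Elavl2 with Cntnap4 (0.87), Pde11a and Gpr158, and Elavl4 with Astn2 (0.86), Dner and Arhgap26.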

How the data were processed

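The deposited files hold, per library, a sparse matrix of UMI counts per gene and nucleus, raw as deposited by the authors and whole throughout. Sorted nuclei were run on the 10x Genomics Chromium system (3' v2) with 75 bp paired-end sequencing, per the labels' protocols. Reads were handled with Cell Ranger 2.2.0 and FastQC on GRCm38 (mm10), per the submitters' processing notes. How barcodes were selected, the annotation and any counting of introns are not given in the sources used here. Gene positions came from GENCODE M21.

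A minimum of 200 genes and a limit of 5% mitochondrial UMIs removed 0 nuclei. Scrublet in scanpy 1.11.5 marked 3 epilepsy and 4 control nuclei, too few to have worked, so the top 3% of scores were removed (93 and 110). Counts were log-transformed per 10000 UMIs, and 2000 variable genes without the members and other splicing regulators were standardised per library, reduced to 30 components and clustered with leidenalg 0.10.2 (20 neighbours, resolution 1.0). Pyramidal and interneuron nuclei were clustered again. A cluster took the class whose markers stood highest and needed 3 markers, more than 50% of the list, at 20 CPM and 2-fold. Sublayers needed Ndst4 at 2-fold, Calb1 in the opposite direction and 1 further marker at 1.25-fold. The 50% rule, the thresholds and the Adarb2 split were set after clusters had been seen, and 13 epilepsy and 22 control nuclei stayed unnamed.

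UMIs were summed over each class in each library and scaled by that sum's total (CPM), with exact Poisson intervals for levels, exact conditional binomial intervals for ratios and Clopper-Pearson intervals for shares, at 95%. They cover counting error only, and in the figures a count of 0 is drawn at 3 counts. Depth was 7112131 UMIs in epilepsy and 11858162 in control. Ratios between conditions needed 30 nuclei per library, and a gene past 1.5-fold needed 100 UMIs. The ratio code was tested on simulated data. All 10 members are named. Listed genes are named where past 1.5-fold in CA1 pyramidal-like nuclei (at most 4 per list and direction), except Srrm4, the interneuron-like Hnrnpu, Hnrnpl and Tra2a and the list examples, which were chosen after values were seen. The 3 genes most like each member follow a fixed measure. The members and lists were chosen with earlier results of these data known. Alternatives covered the gene minimum, doublets, Leiden resolution, members among the clustering genes, thinning to 1000 UMIs, TMM factors (edgeR 4.0.16, R 4.3.3), the UMI minimum, equal weight per nucleus and a 2-fold limit.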

Additional observations from a re-analysis of the deposited data

Results flagged for a closer look

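For Rbfox1 and Elavl4 the epilepsy to control ratio pointed in opposite directions in a pair of classes, and the difference between the classes was not tested. The log2 ratio of Rbfox1 was -0.077 in deep-like nuclei and 0.093 in superficial-like nuclei. Under the alternatives the deep-like value ran from -0.121 to -0.05 and the superficial-like value from 0.003 to 0.105. The signs were thus kept, but the superficial-like value could come close to no difference. Rbfox1 gave 0.017 in CA1 pyramidal-like nuclei as a whole and -0.156 in interneuron-like nuclei, and the first of these changed sign with TMM scaling and with equal weight per nucleus. Elavl4 gave -0.215 in CA1 pyramidal-like nuclei and 0.638 in interneuron-like nuclei, the interneuron-like value resting on 65 UMIs in epilepsy and 83 in control.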

How the results depend on the processing

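No paired analysis was possible because there is 1 library per condition. Of the ratios of single genes, 27 of 43 epilepsy to control ratios and 14 of 18 superficial-like to deep-like ratios kept their sign under every alternative. Rbfox3 stayed between 0.26 and 0.37 in CA1 pyramidal-like nuclei, and Khdrbs2 between superficial-like and deep-like nuclei stayed between 0.76 and 1.19 in epilepsy and 0.66 and 1.06 in control. TMM scaling moved all pyramidal-like ratios by -0.09, the members' median there to -0.17 and the hnRNP count past 1.5-fold to 1. The interneuron-like count of 1 member was 0 with doublets kept, TMM, thinning to 1000 UMIs, at least 1000 UMIs or a 2-fold limit, and 2 with at least 20 UMIs. For hnRNPs the interneuron-like count of 2 was 1 with at least 500 genes, at resolution 2.0 and at 2-fold, 0 with thinning (1 tested) or at least 1000 UMIs (0 tested), and 4 of 20 with at least 20 UMIs; for SR proteins the count of 1 was 0 at 1000 UMIs or 2-fold and 4 of 13 at 20 UMIs; for the other regulators 0 became 1 with doublets kept, equal weight or thinning and 6 of 22 at 20 UMIs. Thinning left Elavl4 under 100 UMIs there, with a ratio of 0.91. With at least 20 UMIs the other neuronal regulators past 1.5-fold numbered 2 and hnRNPs 1. The SR protein count of 2 was 1 with at least 1000 UMIs and 0 at 2-fold. The oligodendrocyte-like members past 1.5-fold numbered 1 with equal weight per nucleus, and their median of -0.28 was 0.21 with at least 500 genes per nucleus. The microglia-like count of 1 member was 0 with at least 500 genes, doublets kept, members among the clustering genes, thinning or 2-fold and 2 with equal weight, and its median of -0.38 was -0.147 with at least 500 genes, -0.675 with TMM, -0.793 with equal weight and -0.074 with thinning. Thinning gave 1 member past 1.5-fold between superficial-like and deep-like nuclei of control in place of 2. Depth limits Nova1 and Elavl2 in pyramidal-like nuclei, all members in glia, and every value from the 14 granule-like nuclei of epilepsy.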

Other observations

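Cajal-Retzius-like nuclei, named by Reln, Trp73 and Ndnf, numbered 6 in epilepsy and 8 in control. The other markers of the class, Lhx1 and Lhx5, had 0 UMIs in these nuclei of both libraries. Celf4 had 4 UMIs there in epilepsy and 5 in control, and Rbfox2 had 2 and 5. Elavl2 and Nova1 had 0 UMIs in these nuclei of both libraries.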
